A study of Homo sapiens with 16 samples.

Results

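The BCL2 family members described here are 10 genes that decide whether a mitochondrion releases its death signals: the protective genes BCL2, BCL2L1 and MCL1, the effectors BAX and BAK1, and the BH3-only genes BBC3, PMAIP1, BCL2L11, BID and BAD. They were chosen by name, and all 10 were found among the 58039 gene identifiers of the table of cultured cells and the 60676 of the table of tumors. RNA-seq was performed on SK-N-BE(2)c, a human neuroblastoma line with MYCN amplification and adrenergic character, transduced with an empty vector (CTRL) or with a vector that overexpresses MOXD1 (MOXD1 OE), a relative of the noradrenaline-forming enzyme DBH. Each group held 3 samples of cultured cells and 5 subcutaneous tumors. All 4 groups came from this line, and only the MOXD1 OE groups carried the MOXD1 vector. The tumors grew in athymic mice, which lack T cells, from cells injected into the flank, and a tumor volume above 1800 mm3 was an endpoint. RNA of the cells and of the tumors was extracted with different kits, and the age of the mice is not given in the sources used here. The authors call the cultured samples biologically independent, but the labels do not say what separated them. The p-values in culture measure the spread between these samples, and how much of it is technical is not known.

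BCL2 family proteins meet at the outer mitochondrial membrane. BAX and BAK1 form the pores through which cytochrome c leaves, after which caspases dismantle the cell. BCL2, BCL2L1 (BCL-XL) and MCL1 hold BAX, BAK1 and the BH3-only proteins in check, and the BH3-only proteins BBC3 (PUMA), PMAIP1 (NOXA), BCL2L11 (BIM), BID and BAD carry stress signals to both. Neuroblastoma cells are known to lean on BCL2 or MCL1 for survival, and NOXA is known to act chiefly on MCL1. RNA levels say nothing of the phosphorylation, cleavage and turnover that also set the activity of these proteins.

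MOXD1 overexpression moved none of the 10 members past the threshold, in culture or in tumors. A gene was called at an adjusted p under 0.05 in edgeR's quasi-likelihood test, with the Benjamini-Hochberg adjustment over all genes tested. In the cells 0 of 10 members were called, against 0% of the 15899 genes tested, and every member had an adjusted p of 1.00. In the tumors 0 of 10 were called, against 0.0118% of 16994 genes, and the adjusted p ran from 0.745 to 0.991. The balance between protective and death genes overlapped between CTRL and MOXD1 OE in both experiments. For most members a larger share of the spread in culture followed the replicate number than genotype. Among the tumors, MOXD1 OE tumors 4 and 5 held the highest BBC3, both in CPM (counts scaled to a library size that edgeR's TMM method corrects for composition) and in TPM (transcripts scaled to the plain total, per length), and the lowest MCL1 in TPM.

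Total counts per sample were between 22693894 and 33758716, and a count of 3, the floor used here, was at most 0.132 CPM. MOXD1, which checks the labels, had counts of 0, 1 and 19 in CTRL cells, of 1138, 4573 and 9943 in MOXD1 OE cells, at most 103 in CTRL tumors and at least 1286 in MOXD1 OE tumors. Its adjusted p in edgeR was 0.477 in the cells, where the transduced gene was thus not called, and 0.0028 in the tumors. With the replicate number as a block MOXD1 was called in the cells as well, at an adjusted p of 0.00136 in edgeR. The share of counts on mitochondrially encoded genes was 16.3% to 47.9% in the cells, highest in MOXD1 OE sample 1, and 8.18% to 34.8% in the tumors. MOXD1 OE tumors 4 and 5 stood apart, with mitochondrial shares of 25.1% and 34.8%, MOXD1 counts of 1441 and 1286 against 5868 to 8979 in the other MOXD1 OE tumors, and correlations of log2 CPM with those 3 tumors as low as 0.933. The 8 adrenergic markers, MYCN among them, summed to between 2166 and 3402 TPM in all 16 samples. The 6 mesenchymal markers summed to at most 8.69 TPM, with PRRX1 at 0 counts in all cells. In each group of cells 7 adrenergic markers and 1 mesenchymal marker reached 1 TPM in all samples. In each group of tumors 8 and 0 did.

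Levels between genes were compared in TPM, which is per transcript length. By group mean MCL1 led the order of the members in culture, and BAX led it in xenografts. In CTRL cells MCL1 stood at 132.6 ± 16 TPM (SD, n = 3), clear of BAX at 82.9 ± 35.8, which was in turn clear of BID, the next in the order, but not of BCL2L1 and PMAIP1. BID (38.5 ± 5.5), BCL2L1 (38.5 ± 12.1) and PMAIP1 (37.3 ± 17.3) followed with overlapping ranges, then BAK1 (22.3 ± 5.5), BAD (17.2 ± 1.5), BCL2 (9.60 ± 6.89), BBC3 (8.85 ± 7.27) and BCL2L11 (4.92 ± 2.31). In MOXD1 OE cells MCL1 (143 ± 52) and BAX (66.9 ± 27.8) again led, but their ranges overlapped. BCL2, the gene that names the family, thus held one of the last 3 places in both groups of cells.

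In CTRL tumors BAX stood at 146 ± 53 TPM (SD, n = 5) and MCL1 at 109 ± 15, with overlapping ranges. BID followed at 71.4 ± 17.5, BCL2L1 at 44 ± 4.9, BAK1 at 28.0 ± 2.6, BAD at 21.8 ± 4.0, PMAIP1 at 15.1 ± 7.3, BCL2 at 13.0 ± 3.5, BCL2L11 at 6.77 ± 3.63 and BBC3 at 2.10 ± 0.28. In MOXD1 OE tumors BAX was at 124 ± 13, MCL1 at 103 ± 38 and BID at 67.0 ± 21.5, and BBC3 was again last at 3.33 ± 0.82. The ranges of BAX and MCL1 overlapped there as well. MCL1 was above BAX in CTRL tumor 1 (126 against 94.5 TPM). It was also above BAX in MOXD1 OE tumors 1 (126 against 117) and 3 (141 against 128). In MOXD1 OE tumors 4 and 5 MCL1 read 73.9 and 50.5, and BAX 105 and 136. In CTRL tumors the range of MCL1 was clear of BID, that of BCL2L1 was clear of BAK1 and that of BCL2L11 was clear of BBC3, and the other neighbours overlapped. Set side by side, PMAIP1 ran from 23.2 to 66.4 TPM in the cells and from 8.38 to 27.4 in the tumors, and BBC3 from 3.05 to 17.2 and from 1.83 to 4.25. The tables of cells and tumors were made with different annotation releases, and culture and extraction kit go with them, so these levels were not tested against each other and the sources of a difference cannot be told apart.

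**Figure D1:**
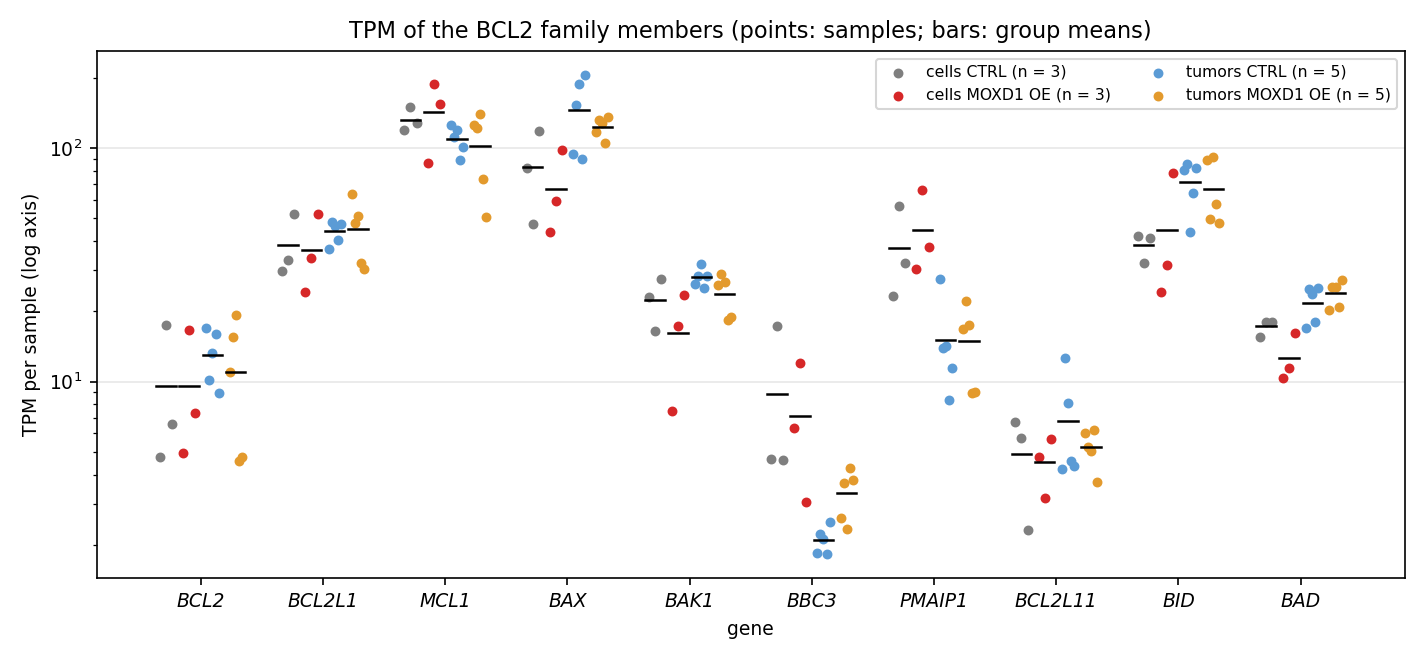
TPM (log axis) of each of the 10 members in each sample, with cells CTRL in grey, cells MOXD1 OE in red, tumors CTRL in blue, tumors MOXD1 OE in orange, and a black bar at each group mean. MCL1 leads in the cells (132.6 and 143 TPM on average) and BAX in the tumors (146 and 124), and within each experiment the points of CTRL and MOXD1 OE overlap for every gene.

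Among the protective genes MCL1, which encodes a short-lived protein, had the highest level. Positions are from GENCODE release 44 on GRCh38, where MCL1 lies on the minus strand at chr1:150560895-150579738, BCL2 on the minus strand at chr18:63123346-63320128 and BCL2L1 on the minus strand at chr20:31664452-31723989. MCL1 read 119, 150.3 and 128 TPM in CTRL cells and 86.1, 189 and 154 in MOXD1 OE cells, samples 1 to 3. Sample 1 of the MOXD1 OE cells was the lowest and sample 2 the highest of all 6. In CPM its log2 fold change, MOXD1 OE over CTRL, was 0.02 (SE 0.26, 95% interval -0.59 to 0.62), and in edgeR its adjusted p was 1.00. In the tumors MCL1 read 126, 112, 119, 88.8 and 101 TPM in CTRL and 126, 122, 141, 73.9 and 50.5 in MOXD1 OE. MOXD1 OE tumors 4 and 5 gave the lowest values, and the groups overlapped. The log2 fold change in tumors was -0.06 (SE 0.17, 95% interval -0.43 to 0.31). MCL1 made up 68.6% to 79.0% of the summed TPM of the 3 protective genes in the cells and 59.0% to 70.0% in the tumors.

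BCL2, whose protein blocks the release of cytochrome c, varied most among the protective genes in the cells. Its counts were 185, 620 and 271 in CTRL cells and 234, 649 and 252 in MOXD1 OE cells, samples 1 to 3. Sample 2 of each group stood above the others, and the 2 groups covered nearly the same range. The log2 fold change was 0.17 (SE 0.52, 95% interval -1.03 to 1.38). In the tumors BCL2 read 28.8, 17.8, 24.3, 30.9 and 16.6 CPM in CTRL and 17.2, 25.1, 29.8, 16.4 and 21.9 in MOXD1 OE. In CPM the groups overlapped almost entirely, with a log2 fold change of -0.10 (SE 0.22, 95% interval -0.57 to 0.38). In TPM MOXD1 OE tumors 4 and 5 held the lowest BCL2, at 4.56 and 4.78, where the lowest CTRL tumor read 8.95. BCL2L1 was steadier than BCL2 in the cells, at 10.7 to 19.3 CPM over the 6 samples. In the 10 tumors BCL2L1 ran from 8.82 to 18.8 CPM. Its log2 fold changes were -0.18 (SE 0.27) in the cells and -0.09 (SE 0.20) in the tumors. Its lowest values were in MOXD1 OE cells 1 and in MOXD1 OE tumor 4, the libraries with 47.9% and 25.1% of their counts on mitochondrially encoded genes. The part of that share in these values was not tested. BCL2L1-AS1, a long noncoding RNA gene, runs over 30610 bases of BCL2L1 on the opposite strand.

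The effectors had negative log2 fold changes in culture and values close to 0 in the tumors, none of them past the threshold. BAX, whose protein moves from the cytosol into the membrane, read 92.7, 46.6 and 86.3 CPM in CTRL cells and 58.9, 34.1 and 76.3 in MOXD1 OE cells. In each of the 3 sample numbers the MOXD1 OE value was the lower, and sample 2 was the lowest of its group. The log2 fold change was -0.41 (SE 0.37, 95% interval -1.26 to 0.43). With the replicate number as a block BAX gave -0.43 with an unadjusted p of 0.029 and an adjusted p of 0.679 in edgeR. BAK1, which sits in the membrane at rest, read 56.1, 33.9 and 52.5 CPM in CTRL cells and 23.6, 32.3 and 46.2 in MOXD1 OE cells, a log2 fold change of -0.48 (SE 0.32, 95% interval -1.21 to 0.25). The groups of BAX and BAK1 overlapped. BAX lies on the plus strand at chr19:48954815-48961798 and BAK1 on the minus strand at chr6:33572547-33580293.

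In the tumors BAX read 84.5, 123, 123, 99.2 and 149 CPM in CTRL and 101, 121, 97, 129 and 128 in MOXD1 OE. The MOXD1 OE tumors fell inside the range of the CTRL tumors, and the log2 fold change was -0.01 (SE 0.16, 95% interval -0.36 to 0.35). BAK1 covered 50.4 to 66.6 CPM in CTRL and 46.5 to 67.1 in MOXD1 OE tumors, with a log2 fold change of -0.07 (SE 0.14, 95% interval -0.38 to 0.23). These were the narrowest intervals among the members. GGNBP1, a pseudogene, runs over all 7747 bases of BAK1 on the opposite strand, and since no source says whether the counting used strand, reads of the 2 cannot be told apart.

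Among the BH3-only genes BBC3 and BAD had the smallest p-values. BBC3 lies on the minus strand at chr19:47220822-47232766, PMAIP1 on the plus strand at chr18:59899996-59904305, BCL2L11 on the plus strand at chr2:111119378-111168444, BID on the minus strand at chr22:17734138-17774770 and BAD on the minus strand at chr11:64269830-64284704. BBC3, which p53 and other stress factors induce, read 1.57, 2.00 and 1.83 CPM in CTRL tumors 1 to 3 and 1.63 and 2.35 in CTRL tumors 4 and 5. The MOXD1 OE tumors read 1.92, 2.83, 1.62, 5.58 and 6.30 CPM. The first 3 of these overlapped the CTRL tumors, and tumors 4 and 5 lay above every other tumor. The log2 fold change was 0.94 (SE 0.37, 95% interval 0.13 to 1.74), with an unadjusted p of 0.026 and an adjusted p of 0.745 in edgeR. BBC3 was the 1 of 10 members with an unadjusted p under 0.05 in the tumors, where 5.72% of all genes had one. Without MOXD1 OE tumors 4 and 5 its log2 fold change was 0.17 (SE 0.27, unadjusted p 0.537 in edgeR). With the mitochondrial share as a covariate it was 0.54 (unadjusted p 0.039 in edgeR). With the replicate number as a block it was 0.76 (unadjusted p 0.044, adjusted p 0.722 in edgeR), though these numbers were not taken to pair the tumors. Of 16994 genes, 1365 had an unadjusted p under 0.05 in the covariate fit and 1004 in the block fit. In TPM BBC3 read 4.25 and 3.78 in MOXD1 OE tumors 4 and 5 and 3.69 in MOXD1 OE tumor 2.

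In the cells BBC3 read 4.86, 14.6 and 3.91 CPM in CTRL and 7.16, 8.86 and 2.44 in MOXD1 OE, and sample 2 was the highest of its group in both. Its log2 fold change of -0.34 had the widest interval of the members, -1.76 to 1.07, and turned to 0.16 without sample 2 of both groups. BAD, a protein silenced by survival kinases, read 3.27, 3.16 and 3.08 CPM in CTRL cells and 2.00, 1.57 and 2.55 in MOXD1 OE cells. All 3 MOXD1 OE samples lay below all 3 CTRL samples, and BAD was the 1 of 10 members whose groups did not overlap in the cells, against 5.76% of the genes tested. These values rest on 40 to 104 counts per sample. The log2 fold change was -0.63 (SE 0.33, 95% interval -1.40 to 0.13), with an unadjusted p of 0.092. In TPM the groups of BAD did overlap, at 15.6 to 18.1 in CTRL and 10.4 to 16.2 in MOXD1 OE.

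In the tumors the fold change of BAD had the opposite sign. BAD gave 2.86 to 4.38 CPM in CTRL and 2.84, 4.10, 4.25, 5.58 and 8.33 in MOXD1 OE. Tumors 4 and 5 were again the highest in CPM, and the log2 fold change of 0.40 (SE 0.28, 95% interval -0.19 to 1.00) was -0.01 without them. In TPM MOXD1 OE tumor 4 was not among the highest, at 20.8 beside 17.0 to 25.3 in CTRL tumors, while tumor 5 was the highest at 27.4. GPR137 runs over nearly all of BAD on the opposite strand, with the same limit on telling reads apart as for BAK1. No member's groups failed to overlap in the tumors, against 1.11% of the genes tested.

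BID, the link from death receptors to the mitochondrion once caspase 8 cuts it, read 31.3, 20.1 and 29.7 CPM in CTRL cells and 19.3, 11.7 and 26.9 in MOXD1 OE cells. In CPM it followed BAX, lowest in sample 2 of both groups and lower in MOXD1 OE at each sample number. In TPM BID in sample 3 read 41.3 in CTRL and 78.1 in MOXD1 OE, and its mean was 38.5 and 44.6. Its log2 fold change was -0.49 (SE 0.34, 95% interval -1.28 to 0.30). With the replicate number as a block it had an unadjusted p of 0.021 and an adjusted p of 0.659 in edgeR. BAX and BID were the 2 of 10 members with an unadjusted p under 0.05 in that fit, where 6.9% of all genes had one and 0.0126% were called after adjustment, none of them a member. In the tumors BID gave 24.6 to 39.9 CPM in CTRL and 31.7 to 48.6 in MOXD1 OE, with a log2 fold change of 0.09 (SE 0.18).

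PMAIP1, the partner of MCL1, read 24.5, 54.6 and 25.6 CPM in CTRL cells and 39.1, 54.6 and 31.9 in MOXD1 OE cells. Sample 2 was the highest in both groups, and the groups overlapped, with a log2 fold change of 0.26 (SE 0.37, 95% interval -0.59 to 1.12). In the tumors it covered 10.1 to 23.5 CPM in CTRL and 12.4 to 19.4 in MOXD1 OE, a log2 fold change of -0.03 (SE 0.23). BCL2L11, whose protein binds every protective member, was counted at 23 to 64 per cell sample, the least of the members there, and at 38 to 166 per tumor. MIR4435-2HG, a long noncoding RNA gene, runs over the whole of BCL2L11 on the opposite strand, with the same limit. The log2 fold changes of BCL2L11 were 0.16 (SE 0.41) in the cells and 0.14 (SE 0.25) in the tumors. The authors' TPM of BCL2L11 was 1.28 to 5.79 times its counts scaled to the plain library total among cell samples and 1.14 to 4.22 times among tumors, so its level depends on the unit. The same factor varied 2.11-fold for BID and 1.95-fold for BCL2L1 in the cells, and 2.85-fold and 2.10-fold in the tumors, against 1.07-fold for BAK1 in the cells. For BAX it varied 1.61-fold in the cells and 1.68-fold in the tumors, and for BCL2 1.25-fold and 1.71-fold.

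**Figure D2:**
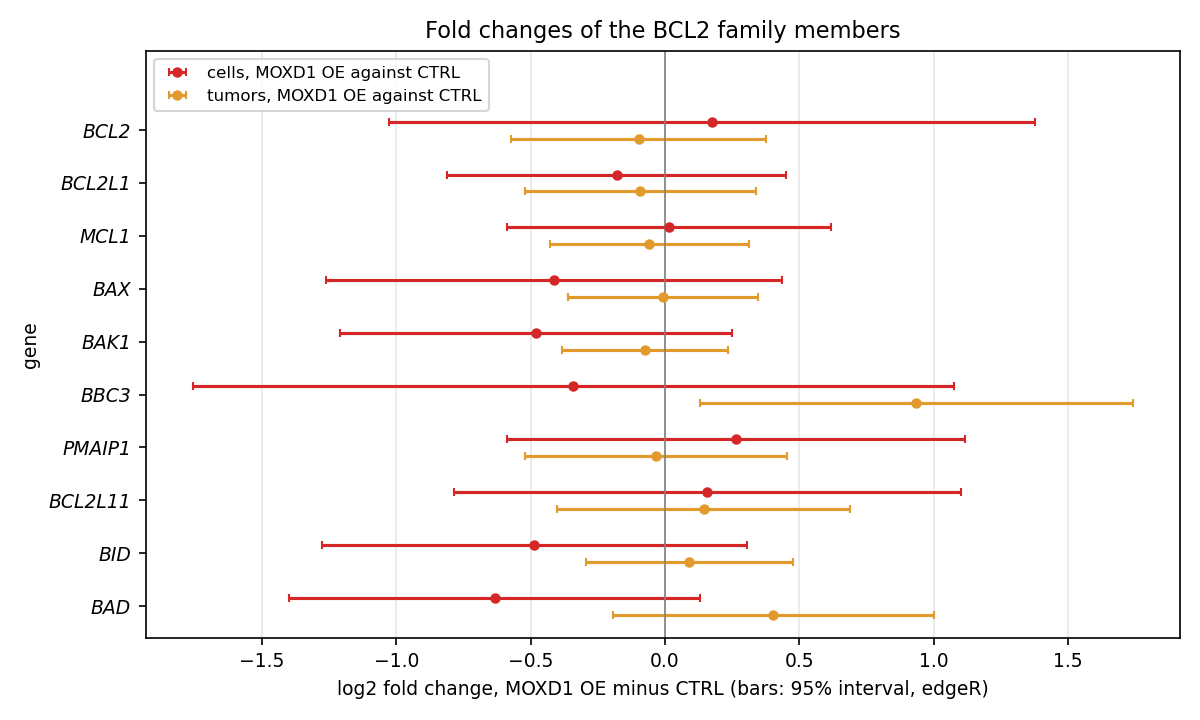
Log2 fold change of each member in CPM, MOXD1 OE over CTRL, with its 95% interval from edgeR, in the cells (red, 3 against 3) and in the tumors (orange, 5 against 5). The interval of BBC3 in the tumors, 0.13 to 1.74, is the single one that leaves out 0, and its adjusted p was 0.745.

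Of the 10 members, 4 had a positive and 6 a negative log2 fold change in the cells, and the same split was seen in the tumors. The median over the members was -0.26 in the cells, beside 0.02 over all genes tested, and -0.02 in the tumors, beside 0.04. No member had an unadjusted p under 0.05 in the cells, where 1.18% of all genes did. The effects in tumors and cells were also compared directly, as tumors minus cells in 1 fit over all 16 samples. None of the 10 members was called there, against 0% of 18364 genes, and every adjusted p was 1.00. BAD had the smallest p of the members, with a difference of 1.01 on the log2 scale (SE 0.43, 95% interval 0.10 to 1.92, unadjusted p 0.031 in edgeR). It was the 1 member with an unadjusted p under 0.05, beside 3.28% of all genes. The difference for BBC3 was larger, 1.25, but with an SE of 0.70. Without sample 2 of both groups of cells and MOXD1 OE tumors 4 and 5, BAD differed by 0.44 (SE 0.39) and BBC3 by 0.03 (SE 0.54).

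The balance was measured within each sample as the log2 ratio of the summed TPM of BCL2, BCL2L1 and MCL1 to that of the 7 death genes, which does not depend on the total of the library. It was -0.37, 0.05 and -0.39 in CTRL cells, a mean of -0.23 ± 0.25 (SD, n = 3). In MOXD1 OE cells it was -0.14, 0.25 and -0.29, a mean of -0.06 ± 0.28. Sample 2 of each group was the only one above 0, where protective RNA exceeds death RNA. The difference of the means, 0.17, was smaller than either SD, and the groups overlapped.

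In CTRL tumors the balance was -0.49, -0.91, -0.80, -0.55 and -1.20, a mean of -0.79 ± 0.29 (SD, n = 5). In MOXD1 OE tumors it was -0.46, -0.53, -0.49, -1.0 and -1.52, a mean of -0.80 ± 0.46. The means differed by -0.01. Tumors 1 to 3 of the MOXD1 OE group lay close together near the top of the CTRL range, and tumors 4 and 5 lay lower, with 111 and 85.6 TPM of protective RNA against 145 to 211 in the other 8 tumors. Without tumors 4 and 5 the difference of the means was 0.29, about the SD of the CTRL tumors.

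As a share, protective RNA made up 43.3% to 54.3% of the members' TPM in the cells and 25.8% to 42.0% in the tumors. On this measure the highest tumor lay below the lowest cell sample. In CPM, which is not per length, the same log2 ratio ran from 0.02 to 1.09 in the cells and from -1.05 to 0.15 in the tumors, and the ranges overlapped. They also overlapped with each gene weighted alike, as mean log2(TPM + 1) of protective minus death genes. That measure was 0.43 to 1.24 in the cells (median 0.84) and 0.16 to 1.22 in the tumors (median 0.97). With BCL2L2, BCL2A1, BCL2L10, BOK, BIK, BMF and HRK added to the TPM sums, the ranges overlapped narrowly, at -0.25 to 0.49 and -1.19 to -0.22. BAX alone was 24.4% to 48.6% of death RNA in the cells and 37.5% to 60.2% in the tumors. The log2 ratio of MCL1 to PMAIP1 counts was 2.83 to 3.81 in the tumors (median 3.52) and 1.98 to 2.98 in the cells (median 2.44). These ranges overlapped. Cells and tumors were not tested against each other, for the reason given above.

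**Figure D3:**
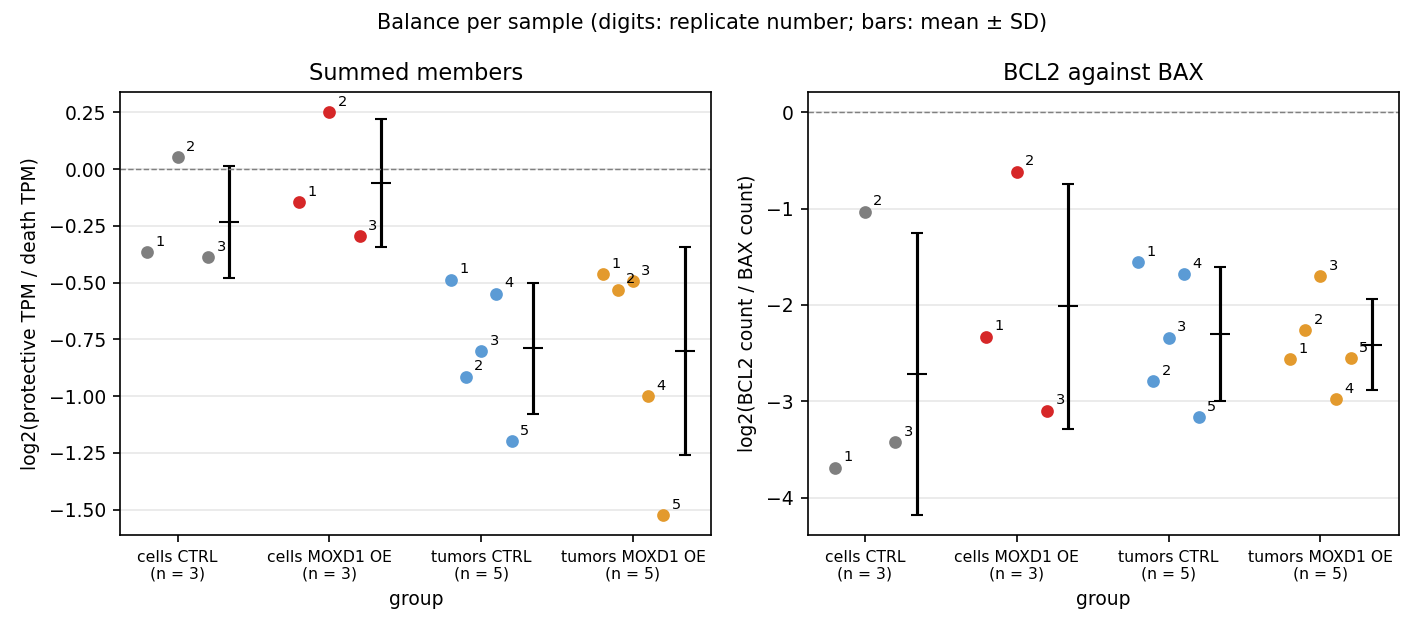
Left, the log2 ratio of summed protective TPM to summed death TPM. Right, the log2 ratio of BCL2 to BAX counts, one point per sample with its replicate number, and mean ± SD per group. Sample 2 of both groups of cells is the highest in both panels (0.05 and 0.25 on the left), and MOXD1 OE tumors 4 and 5 are among the 3 lowest tumors on the left.

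In culture the larger part of the spread followed the replicate number. The sum of squares of log2 CPM over the 6 samples was split into the part that follows genotype and the part that follows replicate number. Replicate number took a median of 76.3% over the members and 66.9% over all genes tested, and genotype 13.7% and 7.45%. Replicate number has 2 of the 5 degrees of freedom and genotype 1, so unstructured values would give them 40% and 20% on average. Replicate number took 90.7% for BCL2, 84.5% for BBC3, 80.1% for MCL1, 79.1% for PMAIP1 and 78.9% for BAX. BAD, with 74.2%, and BAK1, with 32.5% against 30.9% for replicate number, were the 2 members where genotype took the larger part. In CPM sample 2 was the highest of its group in both genotypes for 5 members, BCL2, MCL1, BBC3, PMAIP1 and BCL2L11. It was the lowest in both for 2, BAX and BID. In TPM sample 1 of the MOXD1 OE cells was lower than sample 2 for BAX (43.8 against 59.3) and BID (24.1 against 31.6). In TPM rescaled without mitochondrially encoded genes sample 2 was again the lowest there, at 78.3 for BAX and 41.8 for BID. BCL2L11 in TPM was highest in sample 2 of neither group, and in MOXD1 OE it was lowest there.

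In CPM the shift of these genes had the same sign in both genotypes. Sample 2 exceeded the mean of samples 1 and 3 by 1.52 (CTRL) and 1.08 (MOXD1 OE) on the log2 scale for BCL2, and by 1.11 and 0.62 for PMAIP1. For BBC3 the excess was 1.64 and 0.98. BAX in sample 2 was -0.93 (CTRL) and -0.97 (MOXD1 OE) from the same mean, and BID -0.59 and -0.93. As a ratio of counts, BCL2 to BAX stood at a log2 value of -1.03 and -0.62 in sample 2 of CTRL and MOXD1 OE, and between -3.69 and -2.33 in the other 4 samples. Expressed in TPM, BCL2 was 37.0% and 28.0% of BAX in sample 2 and 5.53% to 11.3% in the others. Sample 2 held 25.9% and 21.6% of its counts on mitochondrially encoded genes, inside the range of the other samples. The labels do not say what the sample numbers stand for, so date, passage and handling cannot be told apart.

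**Figure D4:**
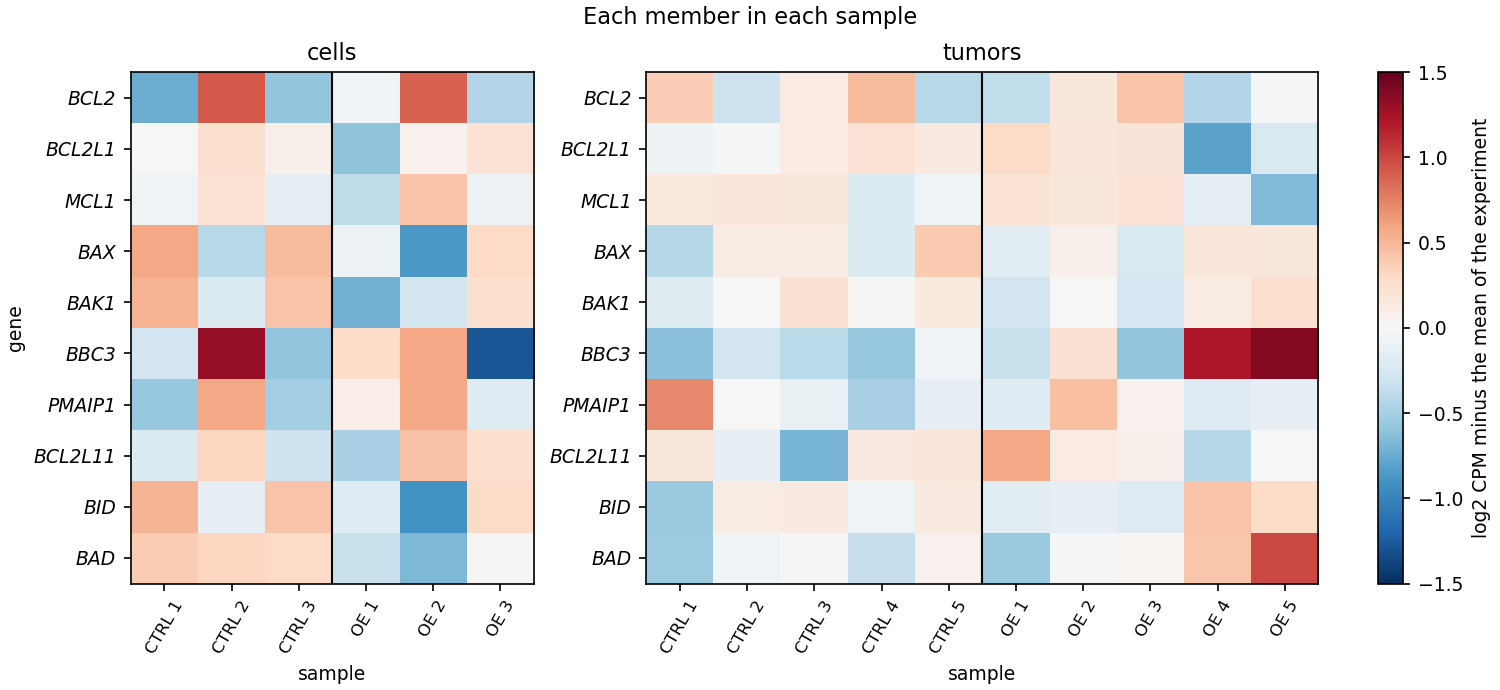
Log2 CPM of each member in each sample minus that gene's mean over the experiment, cells at left and tumors at right, red above and blue below the mean, with a line between CTRL and MOXD1 OE (OE). In the cells the columns CTRL 2 and OE 2 share red BCL2 and PMAIP1 and blue BAX and BID. In the tumors BBC3 is red in OE 4 and OE 5.

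The upstream sequences of 4 members are given because in CPM BBC3 and PMAIP1 were high in sample 2 of both groups of cells while BAX and BID were low. RefSeq promoter entries (GRCh38.p14) were found for 9 of the 10 members, 15 entries in all. Each stretch runs 5′ to 3′ on the gene's strand within the 250 bases before a RefSeq start, and stops where an annotated exon begins. Capitals mark CACGTG, the E-box hexamer that MYC proteins can bind, and GGGCGG, the core of a GC box, on either strand. BBC3 is shown from chr19:47232767-47232917 (minus strand), PMAIP1 from chr18:59899746-59899995 (plus strand), BAX from chr19:48954625-48954814 (plus strand) and BID from chr22:17774043-17774292 (minus strand).
BBC3: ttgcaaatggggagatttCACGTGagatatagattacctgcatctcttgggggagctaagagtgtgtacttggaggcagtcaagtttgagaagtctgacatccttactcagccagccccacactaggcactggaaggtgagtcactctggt
PMAIP1: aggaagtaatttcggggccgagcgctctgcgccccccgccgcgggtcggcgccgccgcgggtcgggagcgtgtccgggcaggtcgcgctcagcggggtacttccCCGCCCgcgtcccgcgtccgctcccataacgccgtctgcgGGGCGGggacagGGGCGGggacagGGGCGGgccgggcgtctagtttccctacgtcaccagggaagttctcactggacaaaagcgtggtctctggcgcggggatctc
BAX: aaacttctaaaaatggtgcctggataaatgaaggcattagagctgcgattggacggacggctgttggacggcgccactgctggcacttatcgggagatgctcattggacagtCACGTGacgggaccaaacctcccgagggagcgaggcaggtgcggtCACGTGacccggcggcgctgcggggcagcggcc
BID: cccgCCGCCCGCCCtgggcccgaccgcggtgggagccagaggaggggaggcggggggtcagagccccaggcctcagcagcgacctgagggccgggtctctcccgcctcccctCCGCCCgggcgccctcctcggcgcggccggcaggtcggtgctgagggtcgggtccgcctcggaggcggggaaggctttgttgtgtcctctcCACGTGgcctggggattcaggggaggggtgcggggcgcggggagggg

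CACGTG occurs once in the BBC3 stretch, 2 times in the BAX stretch and once in the BID stretch. Of the 5 RefSeq entries of BID the one shown and the one that overlaps it hold the hexamer, and the other three do not. The hexamer is not among the letters of the PMAIP1 stretch. Over the whole 250 bases BAX holds 4 copies of it. Of 35116 promoter entries of this length, 6.34% hold the hexamer at least once and 5 hold 4 or more. GGGCGG, which 42.6% of the entries hold, occurs 4 times in the PMAIP1 stretch and 3 times in the BID stretch. BAX holds 1 copy over the whole 250 bases, outside the printed stretch. A match is a description of these letters and not a binding site. CCAAT and TATAAA were searched in the same way and occur in 32.0% and 10.7% of entries. Over the whole 250 bases CCAAT matched before BBC3 (1) and BAX (2), and TATAAA before none of these 4 genes. The match of BBC3 is not within the printed stretch.

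The other 13 genes of the extended BCL2 family were led by BNIP3, a mitophagy receptor that hypoxia induces. BNIP3 gave 35.6 to 57.1 TPM in culture and 110 to 341 in xenografts, and its relative BNIP3L 14.2 to 42.9 and 40.2 to 135. BCL2L13 covered 36.0 to 119 TPM in the cells and 38.0 to 85.7 in the tumors, and BCL2L2 (BCL-w, protective) 7.34 to 49.5 and 19.8 to 43.1. BCL2L12 was lowest of the 5, at 0.71 to 3.28 and 2.36 to 10.9. In the cells 99% of the sum of squares of BCL2L13 followed replicate number, with sample 2 higher than the mean of samples 1 and 3 by 0.87 in CTRL and 1.00 in MOXD1 OE on the log2 scale. BCL2A1 and BCL2L14 had at most 12 counts in any sample. Of these 13 genes 7 passed the filter on low counts in culture and 9 in xenografts, and 0 were called in either.

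**Figure D5:**
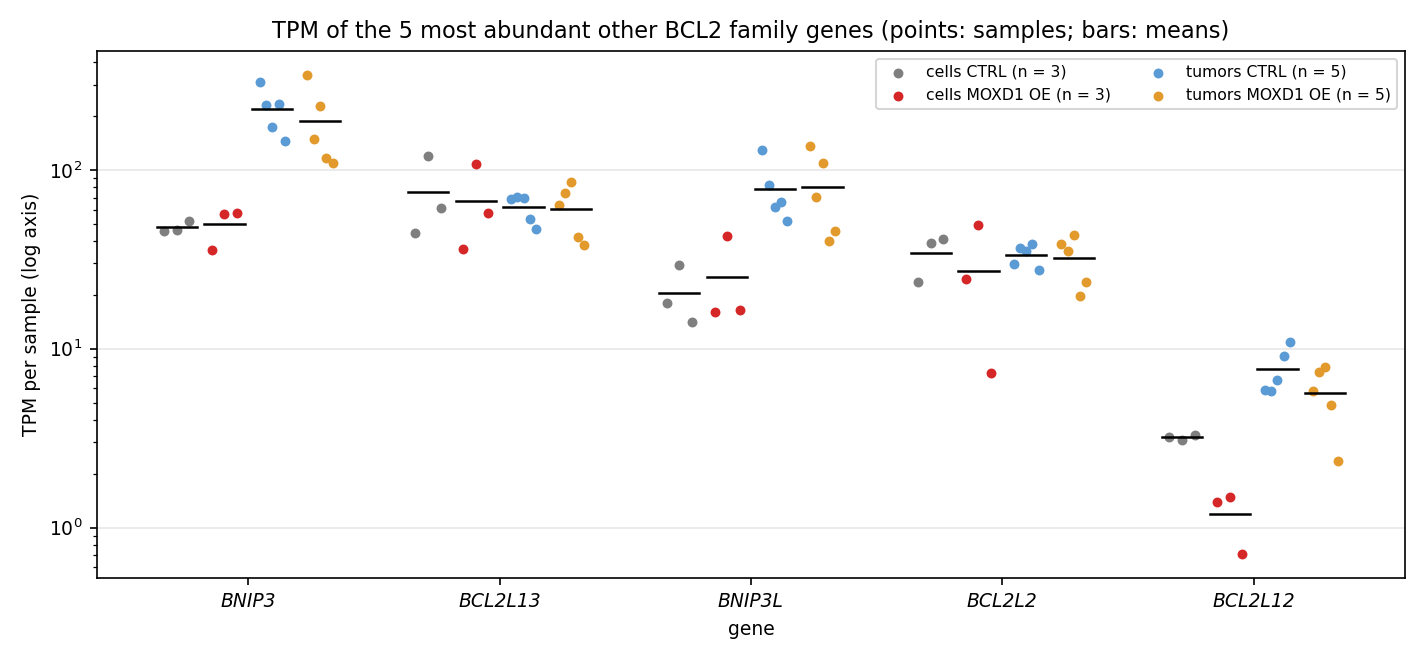
TPM (log axis) of the 5 most abundant other BCL2 family genes in each sample, colors as in the plot of the members, with a black bar at each group mean. BNIP3 lies between 35.6 and 57.1 TPM in culture and from 110 to 341 TPM in xenografts, and CTRL and MOXD1 OE overlap for each gene except BCL2L12 in the cells.

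BCL2L12 in the cells read 3.11 to 3.28 TPM in CTRL and 0.71 to 1.47 in MOXD1 OE, on 20 to 76 counts. Its groups did not overlap in CPM either, as for 5.76% of the genes tested, and its log2 fold change in CPM was -0.88 (SE 0.45, adjusted p 1.00 in edgeR). HRK, a BH3-only gene of neurons, had the smallest p among the other family genes in the tumors, with a log2 fold change of 0.96 (SE 0.35, unadjusted p 0.017, adjusted p 0.745 in edgeR). It was 0.68 without MOXD1 OE tumors 4 and 5. In the cells HRK gave 5, 67 and 8 counts in CTRL and 17, 73 and 7 in MOXD1 OE, so that it too was high in sample 2 of both groups.

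Genes around the family were read from 8 lists of 88 genes in all, the 13 family genes included. Of these, 72 were tested in culture and 79 in xenografts, and 0 were called in either or in the 80 tested for the difference between them. An unadjusted p under 0.05 was found for 0 in culture, beside 1.18% of all genes, and for 9 in xenografts, beside 5.72%. The median log2 fold change over the lists was 0.03 in the cells and -0.06 in the tumors. In the p53 pathway TP53INP1 and MDM2 had the smallest p in the tumors, at 0.76 (SE 0.27) and 0.69 (SE 0.31). Of the 13 caspase and apoptosome genes tested in the tumors, 9 had a negative log2 fold change, where 54.8% of all genes had a positive one. The direction of these lists was not tested.

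The inhibitors of apoptosis BIRC3 and BIRC5 stood at -0.68 (SE 0.31) and -0.47 (SE 0.23) in the tumors. Among 9 mitochondrial partners BCAP31 was at -0.51 (SE 0.19) and TMBIM6, a protein of the endoplasmic reticulum, at -0.32 (SE 0.15). Of the 9, 8 were negative, where 54.8% of all genes were positive, and this direction was not tested. JUN and FOXO3, which can switch on BH3-only genes, were at 0.56 (SE 0.23) and 0.37 (SE 0.17). TNFRSF1A, a death receptor, was at -0.96 (SE 0.52) and the adaptor kinase RIPK1 at 0.30 (SE 0.16). Among kinases and ligases that act on MCL1 or BIM protein, HUWE1 was at 0.39 (SE 0.28) and MAPK3 at -0.23 (SE 0.19). All of these had an adjusted p between 0.745 and 0.774 in edgeR.

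In the cells the same lists gave TP53INP1 at 0.58 (SE 0.33), MDM4 at 0.67 (SE 0.46), TRADD at -0.84 (SE 0.51), FADD at -0.33 (SE 0.29), ENDOG at -0.66 (SE 0.57), BIRC2 at 0.27 (SE 0.20) and BIRC5 at -0.51 (SE 0.50). ATF4 was at 0.39 (SE 0.35), ATF3 at 0.81 (SE 0.78), MAPK8 at 0.37 (SE 0.27), MAPK3 at -0.26 (SE 0.25), DNM1L at 0.20 (SE 0.20) and PPIF at -0.39 (SE 0.39), all with an adjusted p of 1.00 in edgeR.

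Host tissue adds RNA to a xenograft, and fewer cells of a type cannot be told from less RNA per cell. The 6 fibroblast markers summed to 117 to 204 TPM in CTRL tumors and 69.4 to 195 in MOXD1 OE tumors, lowest at 69.5 and 69.4 in tumors 4 and 5. In the cells, which hold no host tissue, they summed to 45.5 to 133, with COL1A1 at 0 counts in both groups and COL1A2 at 0 in CTRL cells and in CTRL tumors. The 5 endothelial markers summed to 10.1 to 36.2 TPM in CTRL tumors and 3.69 to 31.3 in MOXD1 OE tumors, with 6.96 and 6.62 in tumors 4 and 5. They were at most 0.17 TPM in the cells, with KDR and VWF at 0 counts. The 5 myeloid markers stayed at or below 1.11 TPM in every tumor, with ITGAM at 0 counts. The part of these cells in the low protective RNA and high BBC3 of MOXD1 OE tumors 4 and 5 was not tested.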

How the data were processed

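RNA-seq was analysed from 6 cultured samples and 10 tumors, grouped by GEO's labels. The authors aligned reads to GRCh38 with HISAT2 and quantified genes with StringTie on Ensembl release 94 (cells) or 99 (tumors), and deposited raw counts and TPM per gene. Removal of mouse reads, use of strand and counting of both reads of a pair are not given in the sources used here. Of repeated identifiers the entry with most counts was used, leaving out 365 entries (cells) and 151 (tumors).

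From the deposited counts, R 4.3.3 with edgeR 4.0.16 gave the main test (quasi-likelihood, TMM, filterByExpr with a minimum count of 10 and a total of 15, Benjamini-Hochberg over all genes, adjusted p under 0.05). CTRL and MOXD1 OE were compared within each experiment, and the difference of the effects in 1 fit over all 16 samples (18364 genes tested). CPM are TMM-normalized, and the split of the sum of squares used log2(CPM + 0.5). DESeq2 1.42.0, limma-voom (limma 3.58.1), DESeq2's size factors, removal of mitochondrially encoded genes, no filter, the mitochondrial share as a covariate, the replicate number as a block and leaving out each sample were alternatives. Leaving out sample 2 of the cells or MOXD1 OE tumors 4 and 5 was added after seeing the data. From the authors' TPM the balance was computed, without a test.

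The fits were tested on simulated data. These had no structure by replicate number, unlike the cells, so they do not cover that part of the spread. Replicates of a group differed by far more than sampling noise, with a chi-square of at least 17.3 for each degree of freedom. Total counts were 22693894 to 33758716 per sample, and the floor of 3 counts covers counting error only. In the cells the deviations from the group means correlated between same-numbered samples at 0.25, 0.73 and 0.74. CTRL samples 2 and 3 correlated best with the MOXD1 OE sample of the same number. CTRL sample 1 correlated better with MOXD1 OE sample 3, at 0.39, so its number did not pair it on this measure. The replicate number was a block in an alternative fit, and the main test had no block. In the tumors same-numbered samples correlated at -0.24 to 0.32. Differently numbered tumors reached 0.35, and the numbers were not taken to pair the tumors.

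The genes named are the 10 members, MOXD1, the 5 other BCL2 family genes with the highest mean TPM, and, from each other list, the 2 with the smallest p in each comparison, except that some genes of the caspase list are not reported here. BCL2A1 and BCL2L14, the markers at 0, and genes overlapping a member were named after their values or positions were seen. The members and lists were chosen with earlier results of these data known.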

Additional observations from a re-analysis of the deposited data

How the results depend on the processing

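No member was called under any alternative run, at an adjusted p under 0.05 or under 0.1. The lowest adjusted p of a member over these alternatives was 0.659 in the cells (edgeR with the replicate block), 0.445 in the tumors and 0.762 for the difference (both edgeR with 1 sample left out). With the replicate block 0 members were called in culture and 0 in xenografts, and it changed no call of a member or a list gene. No gene of the lists was called under any alternative run for them. All genes called in the cells numbered 0 in the main test, 3 with DESeq2, 2 without a filter, 2 with the replicate block, 1 without sample 2 of both groups, and 0 to 1 when 1 sample was left out (1 without CTRL sample 2). In the tumors they numbered 2, against 30 with DESeq2, 5 without a filter, 5 with the mitochondrial covariate and 2 to 3 when 1 sample was left out. For the difference they numbered 0, against 1 with DESeq2.

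Some fold changes changed sign, on the log2 scale, and not only those near 0. BBC3 in the cells, at -0.34 in the main test, and BAD in the tumors, at 0.40, were among them. In the cells MCL1 was at -0.0100 with limma-voom, -0.016 with the replicate block and -0.11 without sample 2 of both groups, where BBC3 was at 0.16. In the tumors PMAIP1 was at 0.0068 with limma-voom, 0.0031 with the replicate block and 0.035 with the mitochondrial covariate, BAX at 0.0099 with the block and MCL1 at 0.0078 with the covariate. Without MOXD1 OE tumors 4 and 5 BCL2 was at 0.023, BCL2L1 at 0.15, MCL1 at 0.14, PMAIP1 at 0.070, BID at -0.13 and BAD at -0.015. With each sample left out in turn, BCL2 ran from -0.30 to 0.94 in the cells, BCL2L1 from -0.35 to 0.033, MCL1 from -0.24 to 0.19, BBC3 from -0.71 to 0.52 and BCL2L11 from -0.036 to 0.40. In the tumors BCL2 ran from -0.25 to 0.014, BCL2L1 from -0.20 to 0.050, MCL1 from -0.14 to 0.069, BAX from -0.12 to 0.0999, PMAIP1 from -0.19 to 0.18, BCL2L11 from -0.027 to 0.25 and BID from -0.036 to 0.13. The cause was not tested. The difference in balance stayed within 1 SD of its main value under each alternative, from 0.01 to 0.31 in the cells and from -0.11 to 0.17 in the tumors with 1 sample left out.

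Group means of TPM rescaled without mitochondrially encoded genes were 1.36 to 1.5 times the deposited ones in the cells and 1.19 to 1.29 times in the tumors, with the order of the 10 members kept in each group. BAD and BCL2L11, with 23 to 168 counts per sample, and BBC3 in the tumors, with 38 to 109, have the largest counting errors.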
